A study of Mus musculus with 12 samples.

Results

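The comparison described here is the change of cytoplasmic RNA in mouse leukaemia cells after 2 h with 4EGI-1, and it rests on 6 of the 12 arrays of the study. Those arrays were chosen by their titles, which name the reference fraction, and the members compared were the 13073 genes, of 19937 with a probe set of their own, whose mean over the 6 arrays reached the 40th percentile of all probe sets. All cells came from a single clone of T cell acute lymphoblastic leukaemia (T-ALL), number 483, of C57BL6 background, so the results describe that clone and not T-ALL in general. Of the 6 arrays, 3 hold RNA from cells given 100 µM 4EGI-1 and 3 hold RNA from control cells, which the labels call untreated and the protocol text calls DMSO, the solvent. The remaining 6 arrays hold polysomal RNA of the same treatments and are used only where the cytoplasmic genes are followed into that fraction. The fraction is labelled cytoplasmic and titled total, and per the design text it was extracted with Trizol from a share of the same treated cells, so nuclear RNA may be included. The replicates are called biological in the design text without saying which cultures they came from, so the p-values here rest on array-to-array spread that may be technical in part.

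4EGI-1 is a small molecule that keeps the cap-binding protein eIF4E from joining the scaffold protein eIF4G, a contact through which the small ribosomal subunit is brought to capped messenger RNA. Cap-dependent initiation is known to be driven hard in T-ALL, downstream of NOTCH1, MYC and the PI3K-AKT-mTOR pathway, and short-lived proteins such as D-type cyclins depend on it. RNA levels respond on their own account: cells sense faulty protein synthesis, nutrient shortage and metal or oxidative stress through transcription factors such as ATF4, MTF1 and p53, and RNA with a short half-life can change within the time of the treatment.

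The values are log2 array values in which 1 unit is a doubling, the arrays had been scaled to match one another, and a change is therefore relative to the other genes. The array medians of the 6 cytoplasmic arrays lay between 6.447 and 6.556. Arrays of 1 group correlated at 0.985 to 0.991 (untreated) and 0.987 to 0.995 (4EGI-1) over the genes tested, and no arrays held the same values. Of the variance left within groups 60.6% lay along 1 principal component, on which untreated arrays 1, 2 and 3 scored 0.06, -0.54 and 0.48 and 4EGI-1 arrays scored -0.17, -0.38 and 0.55, so arrays 2 and 3 stood on opposite sides in both groups. Of 8 T-lineage markers 6 were measured, with means from 8.30 (Bcl11b) to 11.92 (Cd3g), all above the filter level. Of the 5 measured B-lineage markers (4.49 to 6.61) and of the 6 myeloid markers (5.04 to 6.71), 2 each lay above the filter level. Of 4 stromal markers 3 lay above it (5.58 to 7.29, with Pdgfrb the highest), as did the 1 erythroid marker measured, Klf1 (6.32). None of the markers was called changed.

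With 4EGI-1, 725 genes rose (5.55% of the 13073 tested) and 367 fell (2.81%) at an adjusted p below 0.05 (limma). The median change was 0.61 among those that rose and -0.55 among those that fell, against -0.027 over all genes tested. A rise of at least 1.5-fold was called for 397 genes (3.04%) and a fall of that size for 158 (1.21%), and at least 2-fold changes made up 86 of the rises and 30 of the falls. The 4EGI-1 arrays all lay above the untreated arrays in 1803 genes (13.8%) and all below in 1679 (12.8%), and 723 of the 725 genes that rose and all 367 that fell were among these. Protein-coding genes made up 695 of the rises and 353 of the falls, beside 19 and 6 long noncoding RNAs and 6 small nucleolar RNAs that fell. The counts were lowest without 4EGI-1 array 1. They were 337 and 128 without untreated array 1, 272 and 107 without 4EGI-1 array 1, and 403 and 118 without 4EGI-1 array 2, each given as genes that rose and genes that fell. The number that fell was 160 without untreated array 3, 562 without untreated array 2 and 568 without 4EGI-1 array 3.

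**Figure D1:**
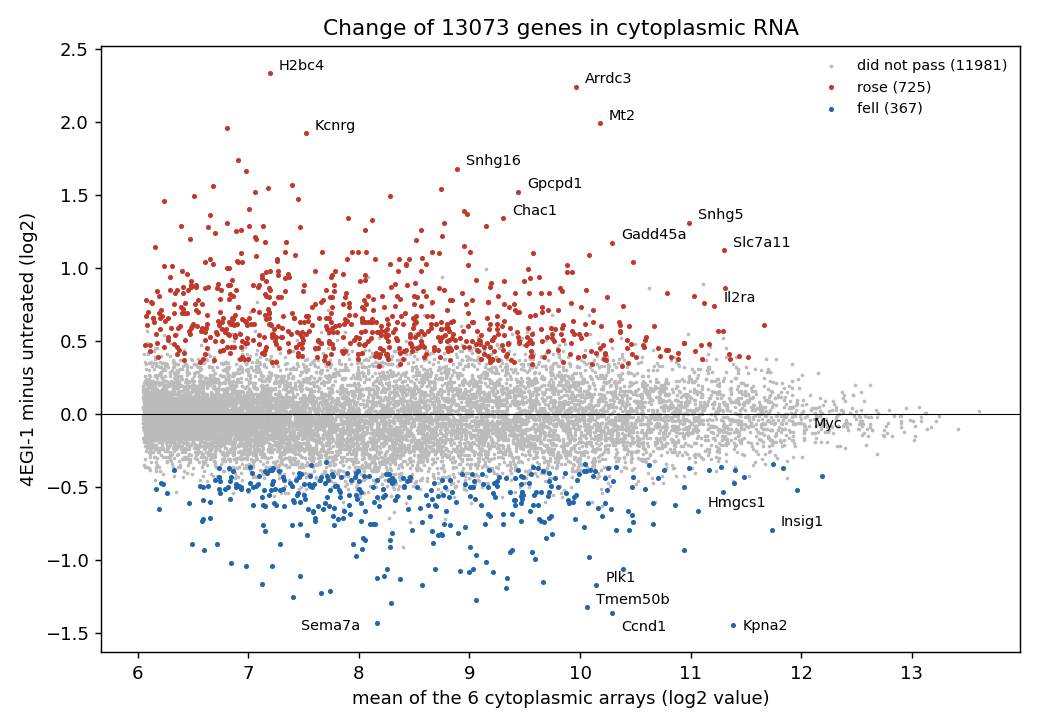
Change of each of the 13073 genes tested (4EGI-1 minus untreated, log2, vertical axis) against its mean over the 6 cytoplasmic arrays (log2 value, horizontal axis), with 725 genes that rose in red, 367 that fell in blue and the others in grey. The rises reach further than the falls, from -1.44 (Kpna2) to 2.33 (H2bc4), and Myc lies near 0; the untreated mean of H2bc4 is below the filter level.

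Promoters of 5 genes are shown first, because they carry the short sequence elements that the gene groups below are known for. Each is the 250 bases before the gene's first listed start in RefSeq (mouse GRCm38.p6), written 5′ to 3′ on the strand of the gene. Capitals mark matches, on either strand, to 1 element per promoter. In Mt2 they mark the metal response core (TGCACNC or TGCGCNC), which the zinc sensor MTF1 binds, in Chac1 and Slc7a11 the C/EBP-ATF element (TGATGNAA), which ATF4 and its partners bind, and in Ccnf and Kpna2 the cell cycle homology region (TTTGAA or TTCGAA), through which genes of late cell cycle phases are repressed outside them. The Mt2 promoter (chr8:94172368-94172617, plus strand) has 3 matches, beginning 223, 128 and 50 bases before the start, and 1.28% of all 27025 listed promoters hold 3 or more. The Chac1 promoter (chr2:119350992-119351241, plus strand) has 1 match and the Slc7a11 promoter (chr3:50443614-50443863, minus strand) has 2, while 3.53% of all listed promoters hold any. The Ccnf promoter (chr17:24251410-24251659, minus strand) has 2 matches and the Kpna2 promoter (chr11:106999526-106999775, minus strand) 1, in an element that 17.4% of all listed promoters hold. In the same window the mitotic genes Plk1 and Aurka, which also fell, had 0 matches to that element, and Cdk1 had 2. A match is a description of the letters and not evidence of binding.
Mt2: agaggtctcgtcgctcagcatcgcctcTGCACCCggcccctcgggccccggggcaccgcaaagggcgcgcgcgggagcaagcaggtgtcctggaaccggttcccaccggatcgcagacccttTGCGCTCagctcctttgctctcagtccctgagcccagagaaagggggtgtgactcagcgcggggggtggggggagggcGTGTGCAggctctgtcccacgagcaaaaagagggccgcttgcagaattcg
Chac1: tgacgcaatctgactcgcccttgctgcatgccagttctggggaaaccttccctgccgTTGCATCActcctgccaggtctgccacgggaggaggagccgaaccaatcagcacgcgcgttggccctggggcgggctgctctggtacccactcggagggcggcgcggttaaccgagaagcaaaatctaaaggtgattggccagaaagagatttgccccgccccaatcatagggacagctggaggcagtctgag
Slc7a11: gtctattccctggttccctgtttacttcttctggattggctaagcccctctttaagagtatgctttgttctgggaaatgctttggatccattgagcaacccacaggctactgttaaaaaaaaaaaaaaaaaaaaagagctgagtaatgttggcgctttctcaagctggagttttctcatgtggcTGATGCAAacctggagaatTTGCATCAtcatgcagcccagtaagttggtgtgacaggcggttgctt
Ccnf: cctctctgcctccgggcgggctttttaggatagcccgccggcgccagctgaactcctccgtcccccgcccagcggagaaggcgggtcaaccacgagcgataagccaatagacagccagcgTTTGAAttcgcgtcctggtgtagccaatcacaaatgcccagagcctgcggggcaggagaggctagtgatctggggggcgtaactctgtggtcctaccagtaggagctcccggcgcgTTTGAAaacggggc
Kpna2: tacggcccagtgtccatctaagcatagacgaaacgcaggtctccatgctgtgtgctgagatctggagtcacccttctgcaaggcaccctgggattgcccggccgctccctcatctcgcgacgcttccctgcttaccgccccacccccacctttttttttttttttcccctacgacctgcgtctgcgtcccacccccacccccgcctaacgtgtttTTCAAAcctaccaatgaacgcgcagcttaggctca

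The gene with the smallest p was Arrdc3, which encodes an arrestin-domain protein that takes part in the endocytosis and ubiquitination of membrane receptors. It read 8.76, 8.91 and 8.87 on the untreated arrays and 11.08, 11.06 and 11.12 on the 4EGI-1 arrays. The arrays of each group lay within 0.15 of one another, and the groups stood 2.24 ± 0.09 apart (SE, n = 3 arrays per group), a 4.71-fold rise (limma, adjusted p = 4.61e-06). Of 6 measured members of the alpha-arrestin family 4 were tested. The other 3 tested did not pass: the glucose-responsive Txnip (-0.24 ± 0.16, limma, adjusted p = 0.423), Arrdc1 (-0.15) and Arrdc2 (-0.13). Gpcpd1, which encodes a glycerophosphocholine phosphodiesterase, was nearly as even: 8.68, 8.76 and 8.59 became 10.20, 10.23 and 10.16, a rise of 1.52 ± 0.09 (limma, adjusted p = 7.17e-05).

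Metallothioneins are small proteins that bind zinc and copper, and they rise when MTF1 senses free zinc. Mt2 read 8.98, 8.87 and 9.70 on untreated arrays and 11.14, 11.03 and 11.35 on 4EGI-1 arrays. Untreated array 3 was the highest control by 0.72, and still 1.34 below the lowest 4EGI-1 array. The rise was 1.99 ± 0.20 (limma, adjusted p = 0.000423). Mt1, its neighbour and close relative, read 7.37, 7.07 and 6.91 and then 7.05, 7.27 and 7.26, groups that overlapped, with a difference of 0.08 ± 0.13 (limma, adjusted p = 0.778). The Mt1 promoter window held 1 match to the metal response core, against the 3 of Mt2. At least 1 is held by 21.3% of all listed promoters and by 29.5% of the 10371 listed for the genes tested. The share was 26.1% for genes that rose and 26.1% for genes that fell. Whether the number of matches bears on the response was not tested. Slc30a1, the zinc exporter of the plasma membrane and another known MTF1 target, had 1 match and rose from 7.14, 7.50 and 7.45 to 8.55, 8.54 and 8.17 (1.06 ± 0.14; limma, adjusted p = 0.00161). Of 17 tested genes of metallothioneins and zinc transport, 3 rose (17.6%, against 5.55% of all genes) and 0 fell, with a median of -0.09. The third, Slc30a6 of the Golgi (0.39 ± 0.10; limma, adjusted p = 0.0403), kept its call only without untreated array 2 and lost it without each of the other 5 arrays (adjusted p up to 0.205). The importers of the Slc39 family and Mtf1 itself (-0.14) did not pass. Hmox1, the haem oxygenase gene that oxidants and metals induce, differed by 0.23 ± 0.16 (limma, adjusted p = 0.432). Of 27 NRF2 and glutathione genes 1 rose and 1 fell (3.7% each, against 5.55% and 2.81% of all genes). Slc7a11 rose, and Prdx1 fell (-0.38), a call that ended without any 1 of the 6 arrays.

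ATF4 is the transcription factor that the integrated stress response switches on. Of 31 tested ATF4 targets 12 rose, 0 fell and 19 did not pass, with a median of 0.33 (all genes: 5.55% rose, 2.81% fell, median -0.027). At an unadjusted p below 0.05, 16 were higher and 1 lower, beside 2957 of all 13073 genes either way (limma). The strongest were genes of redox balance and of the stress response itself. Chac1, which encodes a glutathione-degrading enzyme, rose from 8.49, 8.41 and 9.01 to 9.96, 9.75 and 10.21 (1.34 ± 0.17; limma, adjusted p = 0.00159). Slc7a11, the cystine importer, rose from 10.72, 10.65 and 10.85 to 11.80, 11.78 and 12.01 (1.12 ± 0.11; limma, adjusted p = 0.000376). In both genes array 3 was the highest of its group in control and in treated cells, and the groups did not overlap. Ddit3, which encodes the pro-death factor CHOP, rose from 7.87, 7.69 and 8.01 to 8.62, 8.74 and 8.81 (0.87 ± 0.11; limma, adjusted p = 0.00159). Herpud1 (0.91 ± 0.14; limma, adjusted p = 0.00423), of the degradation machinery of the endoplasmic reticulum, and Ddit4 (0.84 ± 0.13; limma, adjusted p = 0.00379) and Sesn2 (1.02 ± 0.19; limma, adjusted p = 0.00974), inhibitors of mTORC1, rose too. The other members that rose were Nupr1, Trib3, Vegfa, Slc3a2, Cebpg and Ppp1r15a, by 0.53 to 0.91.

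Enzymes of serine and one-carbon metabolism were among the members that did not pass: Phgdh (-0.02), Psph (-0.01), Shmt2 (0.02), Mthfd2 (0.03) and Psat1 (0.08), with adjusted p-values from 0.674 to 0.965 (limma). Asns, the asparagine synthetase gene, read 11.87, 11.97 and 11.72 and then 12.13, 12.03 and 12.10. These groups did not overlap, but the difference of 0.24 ± 0.10 did not pass (limma, adjusted p = 0.196). Atf4 RNA differed by 0.22 ± 0.10 (limma, adjusted p = 0.231); ATF4 is known to be controlled mainly at translation, which these arrays do not measure. Of 18 cytosolic tRNA synthetase genes, also known ATF4 targets, 1 rose (Lars, 0.40; limma, adjusted p = 0.0409), a call that ended without untreated array 1 or 3 or 4EGI-1 array 1 or 2, and the median was 0.10. Of 8 genes of the eIF2 kinases and their feedback, a list chosen after values were seen, Eif2ak3, which encodes the kinase PERK, rose from 8.97, 8.77 and 9.23 to 9.79, 9.65 and 9.73 (0.73 ± 0.12; limma, adjusted p = 0.00611), and the phosphatase subunit gene Ppp1r15a rose by 0.53. The count of 12 ATF4 targets became 7 without untreated array 1 and 7 without 4EGI-1 array 1. Without untreated array 1 the calls of Nupr1, Trib3, Vegfa, Slc3a2 and Ppp1r15a ended, and without 4EGI-1 array 1 those of Nupr1, Sesn2, Vegfa, Slc3a2 and Ppp1r15a, with adjusted p-values up to 0.15 (limma). Of 26 listed ATF4 target promoters, 5 held the C/EBP-ATF element (19.2%), 4 of them among the 12 genes that rose. Over all 586 listed promoters of genes that rose the share was 4.10%, and over the 10371 of genes tested 2.0%.

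Of 20 amino acid transporter genes measured 17 were tested, of which 6 rose (35.3%, against 5.55% of all genes) and 1 fell, with a median of 0.26 that was 0.12 without untreated array 2 or 4EGI-1 array 3. Slc7a7, which exports cationic amino acids with Slc3a2, rose from 6.48, 6.26 and 6.18 to 7.58, 7.66 and 7.88 (1.40 ± 0.12; limma, adjusted p = 0.000237), from a value close to the filter level of 6.05. Slc1a4, which carries alanine, serine and cysteine, rose from 8.20, 7.98 and 8.04 to 9.02, 8.84 and 9.30 (0.98 ± 0.13; limma, adjusted p = 0.00173). Slc3a2, the heavy chain shared by several of these carriers, and the arginine transporter Slc7a1 rose by 0.61 and 0.52. Slc7a5 (0.01), which carries large neutral amino acids, and Slc38a2 (0.06), which carries small ones, did not pass, and the lysosomal transporter Slc36a1 fell by 0.50 ± 0.10 (limma, adjusted p = 0.0165). The calls of Slc7a7, Slc7a11 and Slc1a4 held without each of the 6 arrays. Those of Slc3a2, Slc7a1 and Slc38a9 ended without 4EGI-1 array 1 among others, and the count of 6 became 3 without untreated array 1 or 2 or 4EGI-1 array 1 or 3, and likewise with arrays centred on their medians or with no filter. The call of Slc36a1 ended without untreated array 1 or 3 or 4EGI-1 array 1 or 2 (limma, adjusted p up to 0.0988).

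Of 30 tested genes of the endoplasmic reticulum and its unfolded protein response, 4 rose (13.3%, against 5.55% of all genes) and 1 fell (3.33%, against 2.81%), with a median of -0.07. Herpud1, the sensor Atf6 (0.50 ± 0.09; limma, adjusted p = 0.0078), the retrotranslocation protein gene Derl2 (0.56 ± 0.11; limma, adjusted p = 0.0121) and Edem1 (0.39 ± 0.09; limma, adjusted p = 0.0293), which sorts misfolded glycoproteins for degradation, rose. The chaperone gene Hyou1 fell by 0.44. The calls of Atf6, Derl2, Edem1 and Hyou1 ended without 4EGI-1 array 1, and those of all but Atf6 also without untreated array 1 and 4EGI-1 array 2 (limma, adjusted p up to 0.149). Of 15 heat shock genes 1 fell (6.67%, against 2.81% of all genes). It was Dnajb1 (-0.68), a call that ended without untreated array 1 or 3 or 4EGI-1 array 1 or 2.

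Gadd45a, a stress gene that p53 and ATF4 both induce and that restrains mitotic entry, rose from 9.65, 9.43 and 10.05 to 10.78, 10.68 and 11.17 (1.17 ± 0.17; limma, adjusted p = 0.0034). The p53 targets as a list went both ways: of 19 tested 4 rose and 4 fell (21.1% each, against 5.55% and 2.81% of all genes), with a median of 0.08. Gadd45a, Sesn2, the ribonucleotide reductase subunit gene Rrm2b (0.62 ± 0.10; limma, adjusted p = 0.00491) and the translesion polymerase gene Polk (0.52) rose. Sesn1 read 9.92, 9.94 and 9.92 and then 9.33, 9.27 and 9.32, a fall of 0.62 ± 0.09 (limma, adjusted p = 0.00262), so the related genes Sesn1 and Sesn2 were called in opposite directions. Trp53inp1 (-0.59), Phlda3 (-0.57) and the death receptor gene Fas (-0.50) fell with it, and Mdm2, the p53 ubiquitin ligase, did not pass (0.28; limma, adjusted p = 0.168). The number that fell was 1 without untreated array 1, 2 without untreated array 3 or 4EGI-1 array 1 or 2, and only 2 rose without 4EGI-1 array 1. Cdkn1a, the p21 gene, was not tested, since its probe set names several genes.

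**Figure D2:**
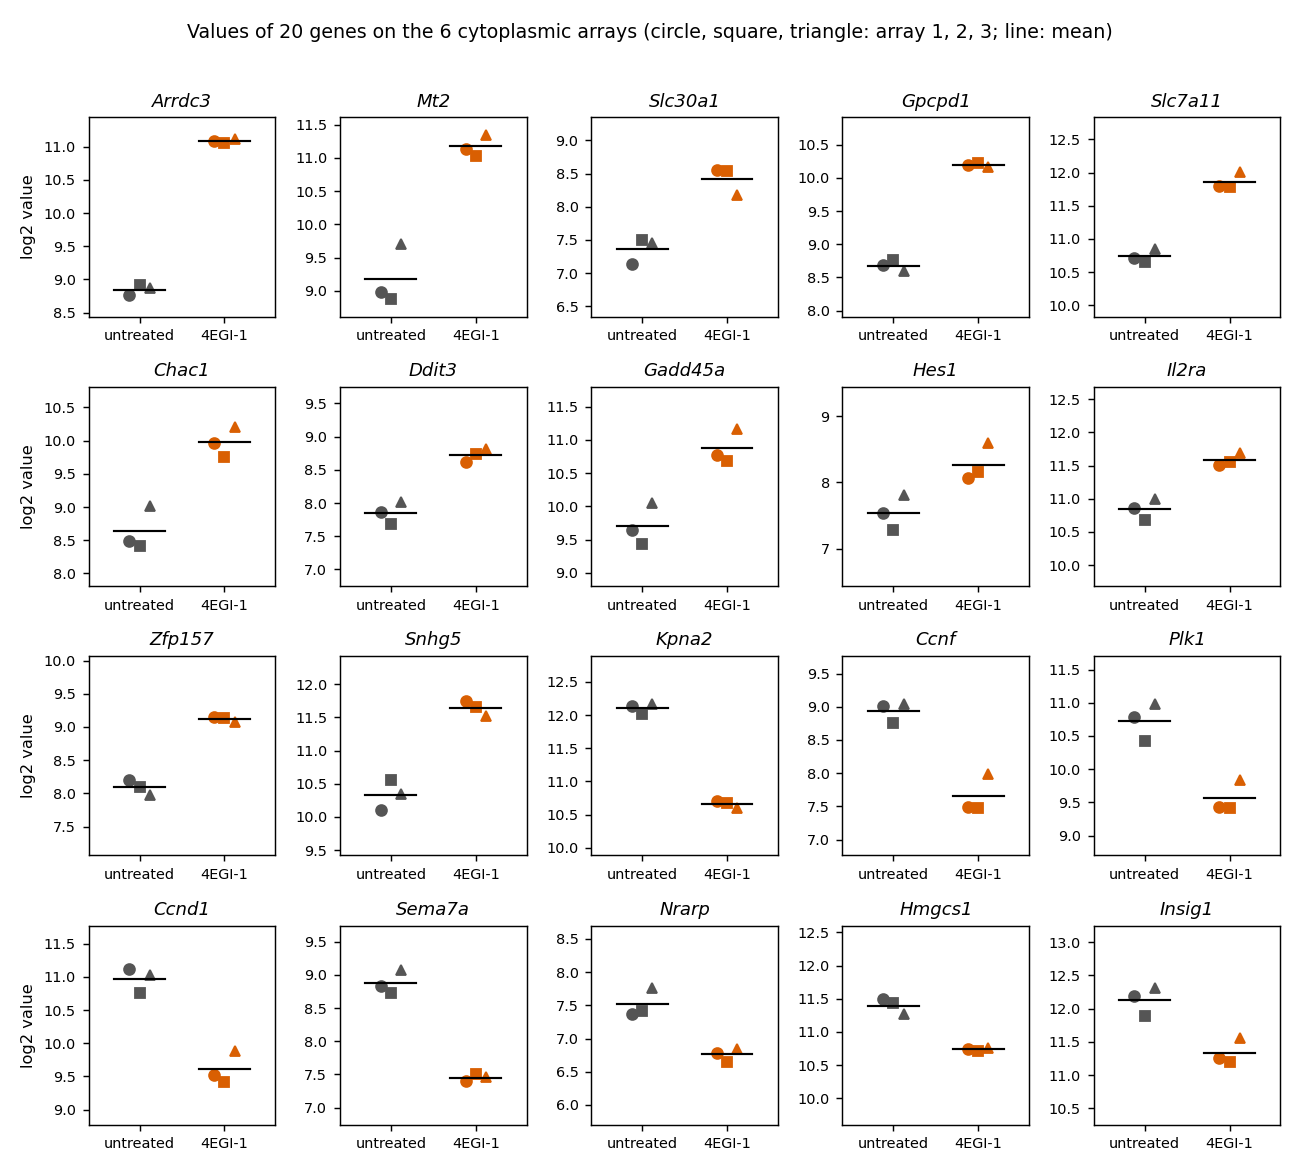
Log2 values of 20 genes on each of the 6 cytoplasmic arrays, untreated in grey and 4EGI-1 in orange, with arrays 1, 2 and 3 as circle, square and triangle and the group mean as a line; every panel spans the same range of log2 units. In each panel the 3 arrays of a group do not overlap with those of the other group, and in Gadd45a, Hes1, Ccnf and Plk1 array 3 is the highest of both groups.

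Immediate early genes, the first transcribed after a stimulus, included 1 rise (3.57%, against 5.55% of all genes) and 3 falls (10.7%, against 2.81%) among 28 tested. Jun, which encodes an AP-1 subunit, rose from 6.96, 7.36 and 7.01 to 8.25, 8.21 and 8.20 (1.11 ± 0.12; limma, adjusted p = 0.000624), and the treated arrays differed among themselves by 0.04. Srf, Ier5 and the phosphatase gene Dusp4 fell by 0.65, 0.51 and 0.62, with adjusted p-values from 0.0151 to 0.0253 (limma). These 3 calls all ended without 4EGI-1 array 2, and those of Ier5 and Dusp4 also without untreated array 1, of Srf and Dusp4 without 4EGI-1 array 1 and of Dusp4 without untreated array 3 (adjusted p up to 0.115). Of 15 NF-kB subunit and feedback genes 0 rose and 1 fell (6.67%, against 2.81% of all genes). It was Tnf, from 6.97, 6.80 and 6.90 to 6.29, 6.43 and 6.18 (-0.59 ± 0.10, limma, adjusted p = 0.00729).

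Genes of G2 and mitosis formed the broadest group that went down. Of 63 tested, 27 fell, 0 rose and 36 did not pass, a share of 42.9% that fell against 2.81% of all genes, with a median of -0.38, and 55 of the 63 differences were below 0. Over all 13073 genes 7336 differences were below 0. At an unadjusted p below 0.05, 41 of the G2/M genes were lower and 0 higher, beside 2957 of the 13073 either way (limma). In bulk RNA, fewer cells in a cell cycle phase and less RNA per cell cannot be told apart. Kpna2, an importin that carries proteins into the nucleus and whose RNA peaks at G2/M, fell the most: 12.14, 12.02 and 12.17 became 10.71, 10.68 and 10.60. The arrays of each group lay within 0.15 of one another, and the fall of 1.44 ± 0.09 (limma, adjusted p = 7.98e-05) was the largest of all 13073 genes. Of 23 importin and exportin genes only Kpna2 fell and only Xpo4 rose (4.35% each, against 2.81% and 5.55% of all genes). The call of Xpo4 (0.38) ended without any 1 of the 6 arrays.

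Regulators of entry into and exit from mitosis fell together with Kpna2. Ccnf, the F-box cyclin of G2, fell from 9.01, 8.76 and 9.04 to 7.49, 7.48 and 7.98 (-1.29 ± 0.15; limma, adjusted p = 0.000837). Plk1, the polo-like kinase, fell from 10.79, 10.42 and 10.98 to 9.43, 9.42 and 9.84 (-1.17 ± 0.16; limma, adjusted p = 0.00209). Cks2, a small partner of cyclin-dependent kinases, fell from 10.19, 10.19 and 10.35 to 9.04, 9.08 and 9.16 (-1.15 ± 0.10; limma, adjusted p = 0.000237). In these genes the lowest untreated array stood at least 0.59 above the highest treated one. Aurka, the centrosomal kinase, fell from 9.85, 9.73 and 10.12 to 8.73, 8.64 and 8.96 (-1.12 ± 0.13; limma, adjusted p = 0.000877), and Cdk1, the mitotic kinase itself, from 10.41, 10.40 and 10.44 to 9.72, 9.63 and 9.60 (-0.77 ± 0.09; limma, adjusted p = 0.000953). The spindle gene Fam83d (-1.16 ± 0.11), the kinesin genes Kif23 (-0.79), Kif22 (-0.79), Kif2c (-0.73) and Kif20a (-0.72), and the anaphase activator gene Cdc20 (-0.72) were also among the 27.

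Other mitotic genes did not pass, among them Mki67 (-0.13), Top2a (-0.09), Bub1 (0.00), Kif11 (-0.05), Ndc80 (0.14) and Aurkb (-0.24), with adjusted p-values from 0.31 to 0.998 (limma). Of 51 genes of G1/S and DNA replication 1 fell (1.96%, against 2.81% of all genes) and 0 rose, with a median of -0.05. It was the flap endonuclease gene Fen1 (-0.50, limma, adjusted p = 0.0252). Pcna (0.02), Mcm6 (-0.02) and Cdc6 (0.09) did not pass. The number of G2/M genes that fell was 15 without untreated array 1, 14 without 4EGI-1 array 1 and 17 without 4EGI-1 array 2, and the call of Fen1 ended without any of these or untreated array 3. Kpna2, Ccnf, Plk1, Cks2, Aurka, Cdk1, Fam83d, Kif23, Kif22 and Kif2c kept their calls without each array, while Cdc20 (adjusted p up to 0.128) and Kif20a (up to 0.0505) did not. The cell cycle homology region was found in 20 of 54 listed G2/M promoters (37.0%), in 13 of the 24 that fell (54.2%) and 7 of the 30 that did not pass (23.3%), against 17.4% of all listed promoters. It was found in 16.8% of the 303 listed promoters of all genes that fell and in 12.3% of the 586 of all genes that rose. Over the 10371 listed promoters of genes tested the share was 12.0%. The CCAAT box (CCAAT), which the factor NF-Y binds, was found in 22 of the 24 (91.7%) and 21 of the 30 (70.0%), against 34.5% of all.

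D-type cyclins start the cell cycle by switching on CDK4 and CDK6. Ccnd1 fell from 11.12, 10.75 and 11.03 to 9.52, 9.42 and 9.88, a change of -1.36 ± 0.14 (limma, adjusted p = 0.000619), and the nearest arrays of the groups stood 0.86 apart. Ccnd3, the cyclin D on which T cell leukaemias are known to depend, fell from 8.56, 8.18 and 8.58 to 7.73, 7.74 and 8.05 (-0.60 ± 0.14; limma, adjusted p = 0.0241). Its highest treated array lay 0.14 below its lowest untreated one, and its call ended without untreated array 1 or 3 or 4EGI-1 array 1 or 2 (adjusted p up to 0.122). Ccnd2 read 7.48, 7.57 and 7.62 and then 7.25, 7.33 and 7.09, a difference of -0.34 ± 0.10 that did not pass (limma, adjusted p = 0.0736). Among their partners and inhibitors, Cdk4 (-0.22), Cdk6 (0.05) and Cdkn1b (-0.04 ± 0.13; limma, adjusted p = 0.881) did not pass. Cdkn2d, an inhibitor of CDK4 and CDK6, fell by 0.45 ± 0.10 (limma, adjusted p = 0.0211), a call that ended without untreated array 3 or 4EGI-1 array 1 or 2.

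NOTCH1 signalling drives most T-ALL, and its direct targets were called in opposite directions. Hes1, a transcriptional repressor, rose from 7.54, 7.28 and 7.81 to 8.06, 8.15 and 8.60 (0.73 ± 0.17; limma, adjusted p = 0.0262). Il2ra, the alpha chain of the interleukin-2 receptor, rose from 10.86, 10.68 and 11.00 to 11.51, 11.55 and 11.69 (0.74 ± 0.11; limma, adjusted p = 0.00362). Nrarp, a feedback inhibitor of the pathway, fell from 7.37, 7.41 and 7.76 to 6.79, 6.64 and 6.85 (-0.76 ± 0.12; limma, adjusted p = 0.00518). Trib2, a pseudokinase gene, fell by 0.66 ± 0.13 (limma, adjusted p = 0.0149). The 2 rises and 2 falls are 8.33% each of the 24 genes tested, against 5.55% and 2.81% of all genes, and the other 20 did not pass, with Notch1 at -0.21 ± 0.17 (limma, adjusted p = 0.526), Dtx1 at -0.46 and Notch3 at -0.24. Hes1 lost its call without untreated array 1 or 4EGI-1 array 1 or 2 (adjusted p up to 0.0973) and with arrays centred on their medians. Trib2 lost its call without untreated array 1 or 3 or 4EGI-1 array 1 (adjusted p up to 0.0599), while Il2ra and Nrarp kept theirs without each array.

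Myc, the NOTCH1 target at the centre of T-ALL growth, read 12.10, 11.77 and 12.40 on the untreated arrays and 11.87, 11.83 and 12.20 on the 4EGI-1 arrays. The groups overlapped, and the difference was -0.12 ± 0.16 (limma, adjusted p = 0.715). Mcl1 (-0.16 ± 0.15; limma, adjusted p = 0.6) and Bcl2 (0.11 ± 0.11; limma, adjusted p = 0.586), which keep lymphoid cells alive, did not pass either. Bcl2l11, which encodes the death promoter BIM, rose from 8.51, 8.37 and 8.89 to 9.34, 9.25 and 9.43 (0.75 ± 0.14, limma, adjusted p = 0.00879). It was the only call among 13 genes of the BCL2 family (7.69% rose, against 5.55% of all genes). Without untreated array 1 or 4EGI-1 array 1 that call was lost (limma, adjusted p up to 0.0521). Of 25 FOXO targets and quiescence genes 1 rose, Bcl2l11, and 4 fell (all genes: 2.81%), Sesn1, Bcl6, Tob1 and Ccng2, by 0.39 to 0.62; without untreated array 1 or 3 or 4EGI-1 array 1 or 2 that number was 1. Klf2 differed by 0.04 ± 0.11 (limma, adjusted p = 0.864). Among 14 genes of the drug's own pathway 2 fell (14.3%, against 2.81% of all genes) and 0 rose. Eif4e (-0.06 ± 0.10, limma, adjusted p = 0.775) and Eif4ebp1 (0.33, limma, adjusted p = 0.234) did not pass. The cap-binding relative Eif4e2 (-0.50, limma, adjusted p = 0.027) and the eIF4E kinase gene Mknk2 (-0.52, limma, adjusted p = 0.0142) fell. Both calls ended without 4EGI-1 array 1 or 2 and, for Eif4e2, untreated array 1 or 3.

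T cell identity genes numbered 26, of which 4 fell (15.4%, against 2.81% of all genes) and 0 rose, with a median of -0.15. At an unadjusted p below 0.05, 8 were lower and 0 higher, beside 2957 of all 13073 genes either way (limma). Sema7a, a membrane-anchored semaphorin of activated lymphocytes, fell from 8.83, 8.73 and 9.08 to 7.40, 7.50 and 7.46 (-1.43 ± 0.11; limma, adjusted p = 0.000185). Cd52, a small surface glycoprotein gene, fell from 6.85, 7.09 and 7.26 to 6.25, 6.33 and 5.81 (-0.93 ± 0.15; limma, adjusted p = 0.00566), to a value near the filter level. Cd27 fell by 0.70 ± 0.16 (limma, adjusted p = 0.0273) and Cd2 by 0.55 ± 0.15 (limma, adjusted p = 0.0474), and the number that fell was 2 without untreated array 1 or 3 or 4EGI-1 array 1 or 2, with adjusted p-values of Cd27 and Cd2 up to 0.117 and 0.142. Cd2 lost its call without any 1 of the 6 arrays. Of 19 T-lineage and T-ALL transcription factor genes 0 fell and 1 rose (5.26%, against 5.55% of all genes). It was Ikzf2 (0.56, limma, adjusted p = 0.016), whose call ended without untreated array 1 or 3 or 4EGI-1 array 1.

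The remaining genes of the 12 largest falls belong to no list used here. Tmem50b, a transmembrane protein gene, fell from 10.77, 10.68 and 10.72 to 9.50, 9.33 and 9.40 (-1.32 ± 0.09; limma, adjusted p = 0.000115). Crip1, a LIM-domain protein gene, fell from 9.75, 9.54 and 9.81 to 8.41, 8.35 and 8.52 (-1.27 ± 0.11; limma, adjusted p = 0.000237). The groups of both genes stood over 1 unit apart at their nearest arrays. The lysolipid transporter gene Mfsd2a (-1.22 ± 0.22), Tmem229b (-1.21 ± 0.16), the mitochondrial adenylate kinase gene Ak4 (-1.19 ± 0.11) and the calponin gene Cnn3 (-1.17 ± 0.17) followed, with adjusted p-values from 0.000376 to 0.00828 (limma); the call of Mfsd2a ended without 4EGI-1 array 1 (adjusted p = 0.0505). Of 20 tubulin genes 3 fell (15.0%, against 2.81% of all genes), Tuba4a (-0.79 ± 0.10; limma, adjusted p = 0.0012), Tubd1 and Tuba8, and the number was 1 without untreated array 3 or 4EGI-1 array 1 or 2.

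Cholesterol synthesis is switched by the factor SREBP2 and its retention protein INSIG1. Of 20 tested genes 6 fell (all genes: 2.81%) and 0 rose, with a median of -0.29. Differences below 0 were found in 19 of the 20, and in 7336 of all 13073 genes. Hmgcs1, which encodes the enzyme ahead of the rate-limiting step, fell from 11.49, 11.43 and 11.27 to 10.75, 10.71 and 10.76 (-0.66 ± 0.10; limma, adjusted p = 0.00346). Sqle, the squalene epoxidase gene, fell from 11.10, 11.17 and 11.24 to 10.59, 10.57 and 10.49 (-0.62 ± 0.09; limma, adjusted p = 0.00361). Insig1 fell from 12.19, 11.89 and 12.31 to 11.26, 11.19 and 11.56 (-0.79 ± 0.14; limma, adjusted p = 0.00747). In these genes the groups stood 0.32 to 0.51 apart at their nearest arrays. Idi1, Msmo1 and Mvd fell by 0.43 to 0.46, and Fdft1 (0.00) and Cyp51 (-0.03) did not pass. The number that fell was 3 without untreated array 1 or 3 or 4EGI-1 array 1 or 2, and the adjusted p of Insig1 was 0.05 without 4EGI-1 array 1. Of 14 fatty acid synthesis genes 2 fell (14.3%, against 2.81% of all genes), Fasn (-0.85) and Elovl6 (-0.40). Both calls ended without untreated array 1 or 3 or 4EGI-1 array 1 or 2. Of 16 listed cholesterol synthesis promoters 15 held a CCAAT box (93.8%, against 34.5% of all), and 3 held the sterol element (TCACNCCA; 18.8%, against 3.58%).

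Among 20 genes of glycolysis and glucose uptake 3 fell (15.0%, against 2.81% of all genes) and 0 rose, with a median of -0.19. They were Bnip3 (-0.80 ± 0.15; limma, adjusted p = 0.0107), a mitophagy receptor gene counted with the hypoxia-responsive members, Pdk1 (-0.43 ± 0.09; limma, adjusted p = 0.0201), which encodes a brake on pyruvate oxidation, and the phosphofructokinase gene Pfkp (-0.48 ± 0.13; limma, adjusted p = 0.0416). The number was 1 without untreated array 1 or 4EGI-1 array 1 or 2 and 5 without 4EGI-1 array 3. Of 82 respiratory chain subunit genes 3 fell (3.66%, against 2.81% of all genes), Sdhd, Uqcrh and Ndufb3, by 0.49 to 0.57. The number was 0 without untreated array 3 or 4EGI-1 array 1 or 2, 1 without untreated array 1 and 5 without untreated array 2. Few genes of the translation machinery and the proteasome were called. Of 57 cytosolic ribosomal protein genes 0 rose and 0 fell (limma; median -0.07), and at an unadjusted p below 0.05 there were 0 higher and 5 lower. Of 38 proteasome genes 0 rose and 0 fell (limma, median -0.09), also at an unadjusted p below 0.05. Of 40 ribosome biogenesis genes 1 fell (2.5%, against 2.81% of all genes), Nop16 (-0.63 ± 0.11, limma, adjusted p = 0.00805). Over all genes tested 2957 had an unadjusted p below 0.05.

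**Figure D3:**
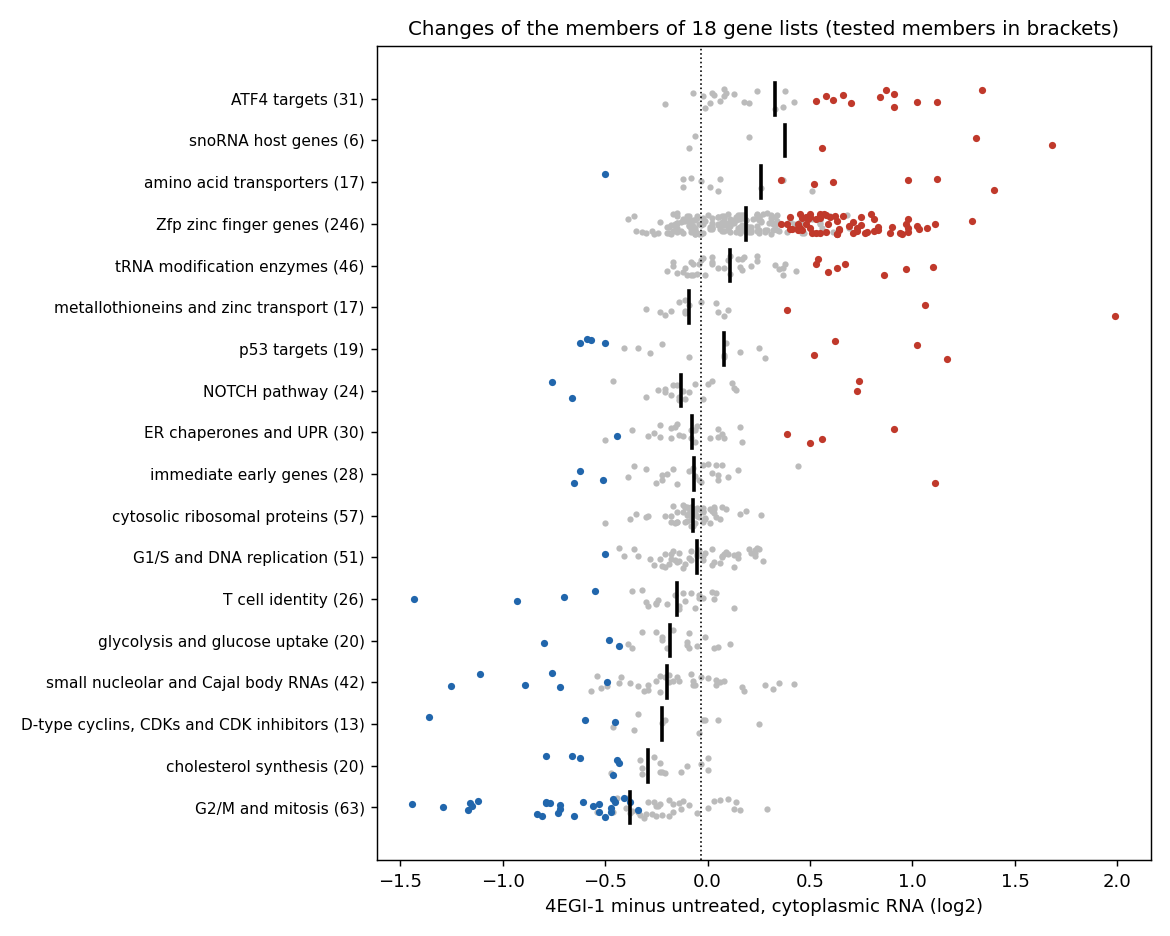
Change of every tested member of 18 gene lists (4EGI-1 minus untreated, log2), with members that rose in red, those that fell in blue and those that did not pass in grey; black bars are list medians, the dotted line is the median of all 13073 genes (-0.027), vertical scatter has no meaning, and some genes stand in several lists. List medians run from 0.38 (6 snoRNA host genes, -0.0 with the mean of all probe sets) to -0.38 (G2/M and mitosis). Changes of the cytosolic ribosomal protein genes run from -0.5 to 0.26, with a median of -0.07.

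Small nucleolar RNAs guide the modification of ribosomal RNA, and most are cut from introns of host transcripts. Of 6 noncoding host genes 3 rose (50.0%, against 5.55% of all genes) and 0 fell: Snhg16 from 7.91, 7.66 and 8.56 to 9.89, 9.19 and 10.11 (1.68 ± 0.26; limma, adjusted p = 0.00406), Snhg5 from 10.10, 10.56 and 10.35 to 11.74, 11.66 and 11.52 (1.31 ± 0.13; limma, adjusted p = 0.000423) and Snhg17 (0.56 ± 0.10; limma, adjusted p = 0.0092). Array 2 was the lowest of both groups for Snhg16, and the groups still stood 0.62 apart. Such spliced host RNAs are known to be degraded while they are translated. The best known of them, Gas5, differed by 0.20 (limma, adjusted p = 0.358), and Snhg15 (-0.09) and Snhg11 (-0.06) did not pass. The call of Snhg17 ended without 4EGI-1 array 1 (limma, adjusted p = 0.0622) and with the mean of its probe sets. With the mean of all probe sets of each gene 2 of the 6 host genes rose, and the list median was -0.0, against 0.38.

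Of 42 small nucleolar and Cajal body RNAs 6 fell (14.3%, against 2.81% of all genes) and 0 rose, with a median of -0.20 that was -0.12 without untreated array 2 and -0.05 without 4EGI-1 array 3. Snord52 fell from 7.99, 8.19 and 7.91 to 7.02, 6.65 and 6.67 (-1.25 ± 0.13; limma, adjusted p = 0.000503), Snora73b from 8.11, 7.92 and 8.04 to 7.04, 6.84 and 6.87 (-1.11 ± 0.10; limma, adjusted p = 0.000335) and Snora73a by 0.89 ± 0.12 (limma, adjusted p = 0.0016). Snora73a and Snora73b are close copies whose probes may share RNA, and probe sets of these short RNAs also read precursor and host RNA. Snord49a (-0.72), Snord35a (-0.76) and Snora44 (-0.49) also fell. The calls of Snord35a and Snora44 ended without untreated array 1 or 4EGI-1 array 1 or 2. At an unadjusted p below 0.05, 15 of the 42 were lower and 0 higher, beside 2957 of all 13073 genes either way (limma).

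Zinc finger genes named Zfp include many repressors of the KRAB class, often in clusters of duplicated genes, with short-lived RNA. Of 246 tested Zfp genes 64 rose (26.0%, against 5.55% of all genes) and 0 fell, with a median of 0.19, and 183 of the differences were above 0. Over all 13073 genes 5737 differences were above 0. At an unadjusted p below 0.05, 105 Zfp genes were higher and 7 lower, beside 2957 of the 13073 either way (limma). Zfp157 rose from 8.20, 8.09 and 7.98 to 9.15, 9.14 and 9.08 (1.03 ± 0.10; limma, adjusted p = 0.000376), and Zfp51 from 7.39, 7.65 and 7.28 to 8.65, 8.61 and 8.38 (1.11 ± 0.12; limma, adjusted p = 0.000742). Zfp39 rose from 9.09, 9.19 and 9.07 to 9.95, 10.02 and 9.89 (0.83 ± 0.09; limma, adjusted p = 0.0008), and Zfp457 rose by 0.89 ± 0.10 (limma, adjusted p = 0.0008). In each of these genes the treated arrays lay together and clear of the controls. The largest rise was that of Zfp605 (1.29; limma, adjusted p = 0.00154), from an untreated mean near the filter level. The number that rose was 25 without untreated array 1, 38 without untreated array 3, 23 without 4EGI-1 array 1 and 36 without 4EGI-1 array 2; 1 fell without untreated array 3 or 4EGI-1 array 3.

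The Zfp genes were divided by the names of their neighbours on the chromosome. A neighbour was counted as a zinc finger gene by its symbol only (Zfp with a number, Zscan, Zkscan, Zbtb, Zik1, Zim or Rsl1). Zinc finger genes under other symbols were not counted, so genes placed without such a neighbour may still lie in clusters. In the RefSeq order of protein-coding genes, 126 Zfp genes had a next gene so named on either side. Of these 41 rose (32.5%), with a median of 0.29 and 85.7% of differences above 0. Of the 120 without such a neighbour 23 rose (19.2%), with a median of 0.11. Genes of 1 cluster are similar in sequence and can share probe signal, so they are not independent, and the difference was not tested. Chromosomes 13 and 17 held 11 of 22 and 11 of 25 that rose, and chromosome 7, which holds the most, 14 of 65. The median untreated values were 7.41 and 7.50 with and without such a neighbour. The listed promoters of Zfp genes that rose had a median GC content of 52.8% and those of Zfp genes that did not pass 56.4%, against 57.0% for all genes that rose and 60.4% for all that fell. The related Zscan, Zkscan and Zbtb genes, listed after values were seen, gave 10 rises and 0 falls among 54 (18.5%), among them Zscan29 (1.11 ± 0.11; limma, adjusted p = 0.000431) and Zbtb26 (1.03 ± 0.10; limma, adjusted p = 0.000423); the number was 6 without 4EGI-1 array 2 and 5 without 4EGI-1 array 1.

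**Figure D4:**
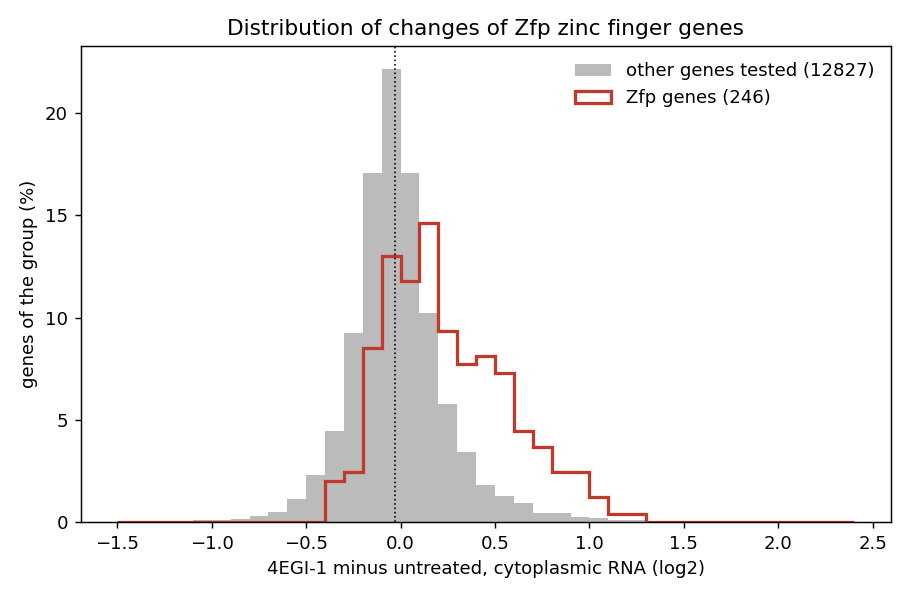
Share of genes (%, vertical axis) by change in cytoplasmic RNA (4EGI-1 minus untreated, log2, bins of 0.1) for the 246 Zfp genes (red outline) and the other 12827 genes tested (grey), with the median of all genes (-0.027) dotted. The median of the Zfp genes is 0.19, with 183 differences above 0 and 63 below, none of them under -0.39.

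Among lists made after values were seen, enzymes that modify transfer RNA gave 8 rises and 0 falls of 46 (17.4% rose, against 5.55% of all genes; median 0.11). Trit1, which adds an isopentenyl group next to the anticodon, rose from 8.18, 8.07 and 8.28 to 9.25, 9.18 and 9.39 (1.10 ± 0.10; limma, adjusted p = 0.000376), and Dus4l, a dihydrouridine synthase gene, from 9.27, 9.31 and 9.62 to 10.31, 10.37 and 10.40 (0.97 ± 0.11; limma, adjusted p = 0.000939). The methyltransferase gene Nsun3 rose by 0.86 ± 0.12 (limma, adjusted p = 0.00232), and 3 rose without 4EGI-1 array 1 and 4 without untreated array 1. Of 14 CLK kinases and SR splicing factors 2 rose and 3 fell (14.3% and 21.4%, against 5.55% and 2.81% of all genes). The kinase genes Clk4 (0.83 ± 0.14, limma, adjusted p = 0.00512) and Clk1 (0.76 ± 0.17, limma, adjusted p = 0.023) rose. Their substrates Srsf9 (-0.89 ± 0.14, limma, adjusted p = 0.00402), Srsf6 (-0.46) and Srsf1 (-0.38) fell. Clk1, Srsf6 and Srsf1 lost their calls without untreated array 1 or 4EGI-1 array 1 or 2 (adjusted p up to 0.12), and Clk1 also without untreated array 3.

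Histone genes moved one by one rather than as a family, with 3 rises and 2 falls among 28 (10.7% and 7.14%, against 5.55% and 2.81% of all genes) and a median of -0.01. H2bc4, 1 of the 3, had the largest fitted rise of all genes tested. Its untreated mean of 6.03 was below the filter level, so it was tested only through its 4EGI-1 arrays. The size, rank and p-value of its rise are uncertain. It went from 5.61, 6.14 and 6.34 to 8.28, 8.33 and 8.48 (2.33 ± 0.17, limma, adjusted p = 0.000115). H2bc8 fell from 8.73, 8.87 and 8.75 to 7.35, 7.72 and 7.95 (-1.11 ± 0.14, limma, adjusted p = 0.00161). Genes of this family are near-identical, so which copy each probe set reports is uncertain. H2ax, the variant that marks DNA breaks, fell from 9.38, 9.22 and 10.08 to 8.28, 8.31 and 8.91 (-1.06 ± 0.23; limma, adjusted p = 0.0201), and untreated array 3 was 0.70 above the next control. The calls of H2ax and H2bc21 ended without untreated array 1 or 3 or 4EGI-1 array 1 or 2, and that of H1f1 (0.51) without untreated array 1 or 4EGI-1 array 1.

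Several of the largest rises started near the filter level in control cells, and 58 of the 725 genes that rose had an untreated mean below it. Xkrx (5.83 ± 0.28 to 7.79 ± 0.20, SD, n = 3), Fhl4 (6.04 ± 0.01 to 7.78 ± 0.19) and Klhl32 (5.90 ± 0.20 to 7.46 ± 0.37) were below it, as was H2bc4 above. Their changes were 1.96, 1.74 and 1.56, with adjusted p-values from 7.98e-05 to 0.0008 (limma). Genes below the filter level in control cells were tested only because their 4EGI-1 arrays raised the 6-array mean. Their p-values are therefore not independent of that selection. Kcnrg (1.92 ± 0.12), the milk protein gene Wap (1.57 ± 0.14), Arl9 (1.55 ± 0.18), the intestinal lactase gene Lct (1.52 ± 0.10) and the zinc finger gene Zc3h6 (1.47 ± 0.14) started between 6.30 and 6.72 and rose with adjusted p-values from 7.17e-05 to 0.000837 (limma). Array values near the background are known to understate a fold, so these sizes are uncertain. Amn1 (1.54 ± 0.20) and Rfesd (1.39 ± 0.15) rose from clearer untreated means of 7.98 and 8.25, with adjusted p-values of 0.00152 and 0.000647 (limma). By mean array value, the share of genes that rose was 4.07% between the filter and 7, 6.42% from 7 to 8, 8.28% from 8 to 9, 6.62% from 9 to 10 and 3.40% over 10. The share that fell was 0.934%, 3.86%, 3.65%, 4.70% and 2.56% in the same bands.

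The polysomal arrays, made from the same treated cells but from separate RNA, show where these genes stood among RNA bound to several ribosomes. On those 6 arrays alone 2326 genes rose (17.8%) and 2684 fell (20.5%; limma). Of the 725 genes that rose in cytoplasmic RNA 654 also rose there, which is 90.2% of the cytoplasmic and 28.1% of the polysomal list, 71 did not pass and 0 fell. Of the 367 that fell 315 fell there too (85.8% and 11.7% of the lists), 43 did not pass and 9 rose. The fractions share cultures, so these counts are not independent of the cytoplasmic ones. The 9 were the mitotic genes Kif2c, Spag5 and Cdca2, the histone gene H2bc8, the fatty acid synthase gene Fasn, the peroxisomal enzyme gene Hsd17b4, the RNA polymerase II subunit gene Polr2b, the myosin gene Myo1e and Wdr6. Kif2c, which depolymerises microtubules at centromeres, fell from 10.03, 9.94 and 10.06 to 9.25, 9.15 and 9.44 in cytoplasmic RNA (-0.73 ± 0.10; limma, adjusted p = 0.00278) and differed by 0.31 ± 0.06 in polysomal RNA (limma, adjusted p = 0.00196). The 9 were picked by these opposed calls, so no test of their difference is given. Over all 13073 genes the difference of the changes, polysomal minus cytoplasmic in a fit over the 12 arrays, passed for 391 (2.99%; limma), and for 471 (3.60%) with arrays of the same treatment and number as a random block. In cytoplasmic RNA, the calls of Wdr6, Myo1e, Spag5, Fasn, Cdca2, Hsd17b4 and Polr2b each ended without untreated array 1 or 3 or 4EGI-1 array 1 or 2.

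**Figure D5:**
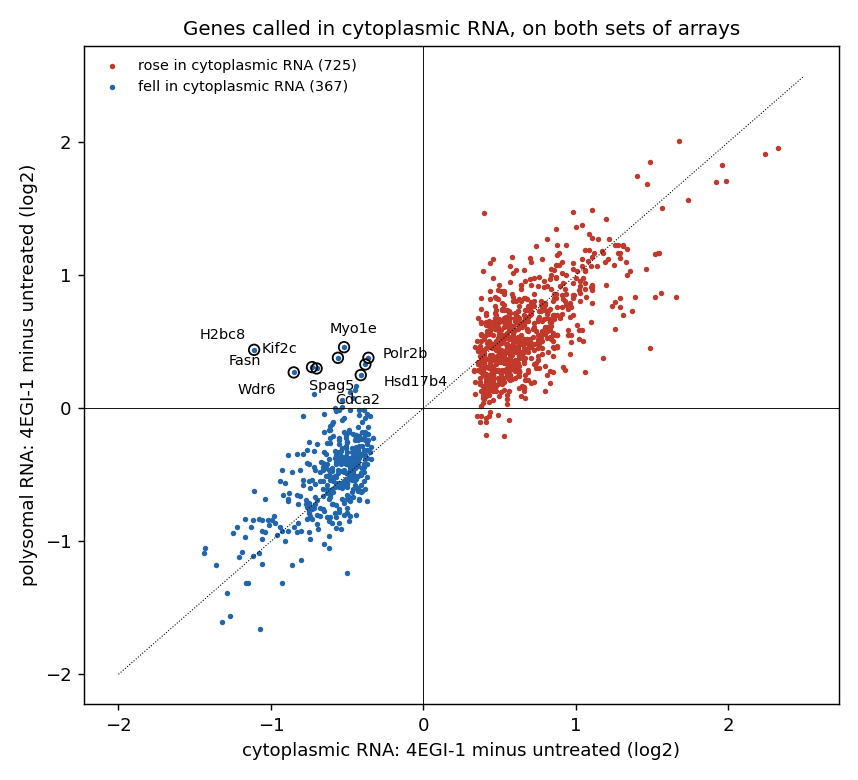
Change in polysomal RNA (4EGI-1 minus untreated, log2, vertical axis) against change in cytoplasmic RNA (horizontal axis) for the 725 genes that rose (red) and the 367 that fell (blue) in cytoplasmic RNA, with equal changes on the dotted line. Most points lie in the quadrants of equal sign, and the 9 circled genes fell in cytoplasmic and rose in polysomal RNA.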

How the data were processed

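Biotin-labelled cDNA was hybridised to single-colour arrays. The values used are the deposited table of 34760 probe sets, on the log2 scale and made by the authors with RMA, per the submitters' processing notes. The sources used here do not give its version or say whether the arrays were normalised as 1 set, and a change in total RNA is not measured. The platform annotation gave the gene names (21640 with 1 symbol, 1321 with several, 11799 with none), and symbols were updated by Entrez number with RefSeq GRCm38.p6 (19855 of 19937 genes). Of several probe sets for a gene (954 genes), the one with the highest 6-array mean was kept. The filter removed 6864 genes whose mean lay under 6.05, the 40th percentile.

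The 6 arrays were fitted with limma 3.58.1 in R 4.3.3 (lmFit, eBayes without a trend; prior 5.97 degrees of freedom, SD 0.138), with Benjamini-Hochberg adjustment over 13073 genes and a threshold of 0.05. The fit was tested on simulated data in which each gene varied independently of the others. That simulation leaves out the within-group variation that genes of the real arrays shared. Errors are standard errors with 3 arrays per group, and their number limits the precision. The polysomal arrays were fitted alone in the same way, and the difference between fractions over all 12 arrays, without a block for the shared culture and, as an alternative, with one.

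The members and gene lists were chosen with earlier results of these data known, so lists are described by counts and medians, to be read against the shares over all genes (5.55% rose, 2.81% fell; median -0.027), with no set test. Named are the 12 largest rises and falls with arrays that did not overlap and both means at or above the filter, 4 rises from below it, up to 4 members with the smallest p of each list with 3 or more calls, and 20 genes always named (Cdkn1a was among them and was not tested); predicted symbols, small RNAs and pseudogenes were left out of the first 2 groups. Other list members are named beside their list's count and were chosen after their values were seen, as were 4 lists (eIF2 kinases, tRNA modification, CLK and SR genes, Zscan, Zkscan and Zbtb genes). Promoters are the 250 bases before the first start listed by RefSeq. Motif shares are given for lists with at least 80% of members listed, beside all 27025 listed promoters. Shares over the genes tested are also given, though only 79.3% of these were listed. For the CCAAT box that share was 35.8%, for the sterol element 3.29% and for 3 or more metal response cores 2.01%. The 27025 include genes that were not tested, so they are not the set from which the calls were drawn. Alternatives were the filter, quantile normalization, median centring, the mean of probe sets, a variance trend, a fit over 12 arrays, array number as a block and leaving out arrays.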

Additional observations from a re-analysis of the deposited data

Results flagged for a closer look

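The change differed between fractions for 5 of the 101 named genes tested, beside 391 of all 13073 (2.99%), by a test of the difference itself (polysomal minus cytoplasmic change, limma over the 12 arrays, taken as independent). Most named genes were chosen by their cytoplasmic change, so these differences are not independent of the choice, and H2bc8 was called in opposite directions in the fractions. Both fractions came from the same treated cells; with arrays of the same treatment and number as a random block, an alternative chosen after the data were seen, the consensus correlation was 0.0896 and all 5 still passed (limma, adjusted p from 0.000714 to 0.034). For the histone gene H2bc8 the difference was 1.55 ± 0.23 (adjusted p = 0.00129), from a cytoplasmic change of -1.11 and a polysomal one of 0.44. The lactase gene Lct had a difference of -0.68 ± 0.14 (adjusted p = 0.0126), since it rose by 1.52 in cytoplasmic and by 0.84 in polysomal RNA. Derl2, of the degradation machinery of the endoplasmic reticulum, had a difference of -0.65 ± 0.15 (adjusted p = 0.0286), with changes of 0.56 and -0.09. The small nucleolar RNA Snora73b had a difference of 0.49 ± 0.11 (adjusted p = 0.0268), with falls in both fractions (-1.11 and -0.62). The phosphofructokinase gene Pfkp had a difference of 0.61 ± 0.16 at the edge of the threshold (adjusted p = 0.05 after rounding up), with changes of -0.48 and 0.12.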

How the results depend on the processing

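Against 725 genes that rose and 367 that fell, the counts lay between 544 and 764 and between 257 and 480 with no filter, a filter at the 60th percentile, quantile normalization, median centring, the mean of all probe sets or a variance trend. A fit over all 12 arrays (prior SD 0.117 against 0.138) called 1320 and 1029, with all 725 and 367 among them. The array numbers are shared by both groups, but same-numbered arrays deviated together only for numbers 2 and 3 (r = 0.562 and 0.517) and not for number 1 (r = -0.215), and array 1 of each group correlated better with another number, so the numbers were not taken as pairs; with the replicate block 1244 rose and 1126 fell. Leaving out 1 array gave 272 to 826 and 107 to 568. Leaving out both arrays of a number, tried after the data were seen, gave 54 and 17 for number 1, 593 and 269 for number 2 and 840 and 517 for number 3. Without both arrays of number 1, the G2/M genes that fell went from 27 to 3 and the cholesterol synthesis genes from 6 to 0, and the ATF4 targets that rose went from 12 to 1 and the Zfp genes from 64 to 3, while the medians of these lists were -0.38, -0.27, 0.32 and 0.17, against -0.38, -0.29, 0.33 and 0.19. The cause of these differences was not tested. Leaving out number 2 or number 3 also left 4 arrays in the fit. On the first within-group component, the arrays left without number 1 scored -0.54 and 0.48 (untreated) and -0.38 and 0.55 (4EGI-1). None of the 101 named genes that were tested reversed a called direction under these alternatives. Of 89 named calls, 81 to 88 were kept under the settings other than the 60th percentile filter (80 of the 81 tested there) and those that leave out arrays, with all 89 kept in the 12-array fit and under the block, 59 to 86 without 1 array and 28 without both arrays of number 1. Median centring moved the median of all genes from -0.027 to -0.05.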
